A study of Rattus norvegicus with 12 samples.

Results

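Genes of the endoplasmic reticulum, 9 in all, were followed through the brains of rats that had self-administered cocaine: the chaperones Hspa5, Hsp90b1 and Calr, the protein disulfide isomerases Pdia3, Pdia4 and Pdia6, and the stress genes Herpud1, Xbp1 and Ddit3. Every probe set annotated to 1 of these symbols was taken, which gave 10 probe sets for 9 genes, among 20826 probe sets with 1 symbol (14217 genes) on the Affymetrix Rat Genome 230 2.0 array. Pdia3 has 2 probe sets, and each of the other genes has 1. All 10 passed the filter on dim probe sets, a mean signal above 17.4 over the arrays. The values are MAS5 signals, an intensity on a linear scale.

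The 12 arrays fall into 4 groups of 3: nucleus accumbens (NAc) under TsA, NAc under vehicle, anterior cingulate cortex (ACC) under TsA, and ACC under vehicle. All were male Wistar rats that took cocaine intravenously (0.3 mg/kg per injection, 40 µl) in 4 daily sessions of 2 h and died 2 h after the last, so no group was free of cocaine. The labels do not spell out TsA, which often stands for trichostatin A (a drug that blocks histone deacetylases), and give no dose or age. Each array carried RNA from the pooled tissue of 2 rats, and the labels do not say whether the same rats supplied both structures.

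The endoplasmic reticulum folds membrane and secreted proteins, which neurons need for their receptors, channels and neuropeptides. When unfolded proteins accumulate there, sensors in its membrane start the unfolded protein response. One branch splices Xbp1 mRNA into that of an active transcription factor, one releases Atf6, and one slows translation while favouring that of Atf4, which drives Ddit3. Xbp1 and Atf6 raise chaperones and folding enzymes, and Ddit3 (also called CHOP) is known as a mediator of cell death under lasting stress. The signal of an Xbp1 probe set does not tell its spliced form from the unspliced one.

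Several of these genes carry a DNA element known from work on mammalian cells to answer to Atf6 and Xbp1, the endoplasmic reticulum stress element (ERSE): CCAAT, any 9 bases, then CCACG. Promoter windows from 250 bases before to 50 bases after the gene start, from RefSeq on build GRCr8, were found for 7 of the 9 genes, all but Pdia3 and Pdia6. The ERSE, searched on both strands, was found in 4 of these 7 (Hspa5, Hsp90b1, Xbp1 and Calr) and in 22 of all 33469 windows (0.0657%). The related ERSE-II (ATTGG, any 1 base, then CCACG) was found in the Herpud1 window and in 17 windows in all (0.0508%). The stretches below show these elements in the known target genes, 5′ to 3′ on the gene's strand, with the element in capitals. The CCAAT box within both elements is common: it was in all 7 windows and in 37.5% of all windows.
Hspa5, chr3:38452948-38453015, plus strand, element 43 bases before the start: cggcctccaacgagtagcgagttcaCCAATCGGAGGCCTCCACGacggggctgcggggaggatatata
Hsp90b1, chr7:23012426-23012494, minus strand, element 176 bases before the start: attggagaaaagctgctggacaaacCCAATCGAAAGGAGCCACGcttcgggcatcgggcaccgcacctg
Hsp90b1, chr7:23012322-23012390, minus strand, element reversed and 72 bases before the start: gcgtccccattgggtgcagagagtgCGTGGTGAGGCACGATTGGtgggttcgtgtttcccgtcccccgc
Xbp1, chr14:84604533-84604601, plus strand, element 65 bases before the start: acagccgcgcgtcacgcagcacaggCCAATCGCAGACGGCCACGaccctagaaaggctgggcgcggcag
Calr, chr19:40213117-40213178, plus strand, element reversed and 232 bases before the start: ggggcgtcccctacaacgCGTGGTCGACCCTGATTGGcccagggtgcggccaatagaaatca
Herpud1, chr19:10614796-10614856, minus strand, ERSE-II 124 bases before the start of its window: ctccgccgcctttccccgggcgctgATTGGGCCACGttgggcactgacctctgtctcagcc

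For 6 of the 7 genes the start in the promoter table is the 5′ end of the gene in RefSeq, whereas for Herpud1 it lies 9461 bases inside the annotated gene (chr19:10604360-10624168). The Herpud1 window also held a C/EBP-ATF composite site, TTGCATCA, 184 bases before that internal start, a letter run present in 0.795% of all windows. The unfolded protein response element TGACGTGG was in 0 of the 7 windows and in 0.595% of all. The Ddit3 and Pdia4 windows held none of these elements beyond CCAAT boxes, which says only that the letters were not found in those windows. A match is a description of sequence and not of binding.

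The deposited signals had a 2% trimmed mean near 100.03 on every array and medians of 26.8 to 33.1. The 3′ to 5′ signal ratio was 1.12 to 1.25 for GAPDH and 1.96 to 2.38 for actin. Markers went with the labelled structures: all 7 measured markers of striatal projection neurons were higher in NAc, with Drd2 at 641 ± 69.4 in NAc and 26.9 ± 4.44 in ACC (SD, n = 6 arrays each), and all 6 of cortical glutamatergic neurons were lower. All 6 measured oligodendrocyte markers were higher in NAc, with summed signals of 10810 to 13220 in NAc arrays and 3367 to 4451 in ACC arrays. Of 8 markers of meninges and fibroblasts, 7 were lower in NAc (sums 304 to 426 in NAc, 497 to 1099 in ACC, the lowest ACC sum being that of TsA array 2). Fluidics runs were inferred from the run records, as arrays of 1 station started within 30 minutes of each other. That rule gave 3 runs: ACC vehicle 1 to 3 with ACC TsA 1, then ACC TsA 2 and 3 with NAc vehicle 1 and 2, then NAc vehicle 3 with NAc TsA 1 to 3. So TsA and vehicle shared a run in ACC only through TsA array 1, and in NAc only through vehicle array 3. With the run as a fixed block, a TsA value rests on that array against the 3 of the other treatment. A single axis held 50.3% of the variance left within the groups, and NAc vehicle 1 and ACC vehicle 1 lay at its one end, NAc vehicle 3 and ACC vehicle 2 at the other.

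Between the structures, Pdia6 and Ddit3 were lower in NAc than in ACC, and no gene of the set was higher in NAc. The question here was which of these genes differ between the accumbens and the cingulate cortex, averaged over treatments. By limma's moderated test with Benjamini-Hochberg adjustment over 18625 probe sets, at an adjusted p under 0.05, 2 of the 10 probe sets were lower and 0 higher, and 3 had an unadjusted p under 0.05. Structure differences were common on the array: 44.8% of all tested probe sets passed, 20.4% lower and 24.4% higher, so 2 of 10 lower is near the background. Over the 9 genes the median log2 difference was -0.04, against 0.03 over 10382 genes. Bulk tissue was measured, so fewer cells of a type and less RNA per cell cannot be told apart.

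Pdia6 encodes a disulfide isomerase that shapes disulfide bonds in new proteins and is known to bind the Ire1 sensor (chr6:45791704-45808947, GRCr8). Its signal was 706, 663 and 653 on the NAc TsA arrays and 614, 644 and 643 on the NAc vehicle arrays. In ACC it was 872, 827 and 829 under TsA and 798, 905 and 864 under vehicle. Every NAc array lay below every ACC array, which was so in either direction for 27.1% of all probe sets and for Pdia6 alone among the 10. The log2 difference of (signal + 16), NAc minus ACC, was -0.37 ± 0.05 (SE; limma adjusted p = 9.92e-05), with a 95% confidence interval from -0.49 to -0.25, a level 0.774 times that of ACC. It ran over -0.35 to -0.39 when each array was left out in turn.

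Ddit3 encodes the stress transcription factor CHOP (chr7:65001695-65006517, GRCr8). Its signal was 148, 102 and 92.9 on the NAc TsA arrays and 96.4, 94.1 and 119.8 on the NAc vehicle arrays. In ACC it was 148, 129.5 and 146 under TsA and 158, 149 and 143 under vehicle. NAc TsA array 1 lay within the range of the ACC arrays, and the other 5 NAc arrays lay below it. The log2 difference was -0.39 ± 0.10 (SE; limma adjusted p = 0.0075, 95% interval -0.61 to -0.17), a level 0.766 times that of ACC, and its size ran over 0.33 to 0.47 when each array was left out in turn.

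**Figure D1:**
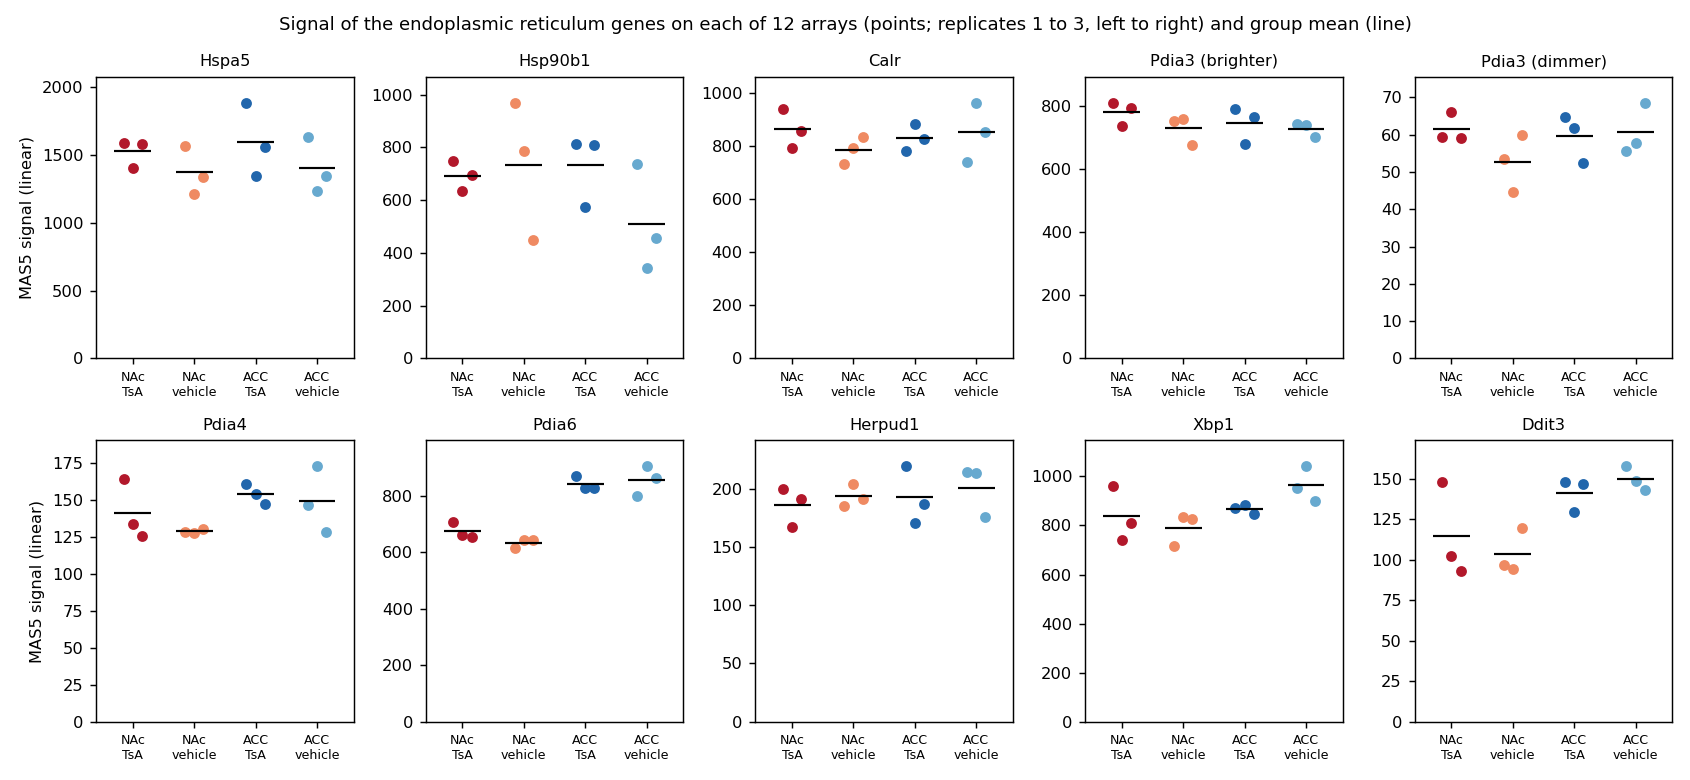
MAS5 signal (linear, from 0) of each of the 10 probe sets on each of the 12 arrays, with points for replicates 1 to 3 and a line for the group mean, in NAc TsA, NAc vehicle, ACC TsA and ACC vehicle. The 6 NAc arrays of Pdia6 sit between 614 and 706, all below the 6 ACC arrays, and Hsp90b1 runs over 343 to 969.

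The fluidics run bears on both calls, because the middle run alone held both structures. With the run as a fixed block the Pdia6 difference was -0.34 ± 0.13 (SE, limma adjusted p = 0.0743) and that of Ddit3 -0.52 ± 0.22 (adjusted p = 0.118). Both calls so ended, with SEs above the 0.05 and 0.10 found without the block, while 4199 of all probe sets still passed. With the run as a random block both stayed past the threshold, Pdia6 at -0.37 (limma adjusted p = 1.56e-04) and Ddit3 at -0.39 (adjusted p = 0.00958). Within the middle run, NAc vehicle 1 and 2 against ACC TsA 2 and 3, Pdia6 differed by -0.39 (adjusted p = 0.0479) and Ddit3 by -0.47 (adjusted p = 0.0524). All NAc arrays of that run had vehicle and all its ACC arrays TsA, so structure and treatment cannot be told apart within it.

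Xbp1 was the third gene with an unadjusted p under 0.05. It read 962, 740.2 and 812 on NAc TsA arrays, 716, 834 and 824 on NAc vehicle arrays, 872, 883 and 849 on ACC TsA arrays, and 954, 1042 and 902 on ACC vehicle arrays. NAc TsA array 1 lay above all but 1 of the ACC arrays, and the other 5 NAc arrays lay below them all. The log2 difference was -0.17 ± 0.07 (limma adjusted p = 0.073), and without NAc TsA array 1 it was -0.22 (adjusted p = 0.0196), past the threshold.

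Pdia4, another disulfide isomerase, read 164, 134 and 125 on NAc TsA arrays, 128, 128 and 129.8 on NAc vehicle arrays, 161, 154 and 147 on ACC TsA arrays, and 146, 173 and 128 on ACC vehicle arrays. The structures overlapped, and the log2 difference was -0.15 ± 0.08 (limma adjusted p = 0.162). Centring each array on its median, which set the median log2 difference of all probe sets at -0.06 in place of 0.04, took Xbp1 (-0.27, adjusted p = 0.0158) and Pdia4 (-0.25, adjusted p = 0.0393) past the threshold. Quantile normalization did not (Xbp1 -0.12, limma adjusted p = 0.137, and Pdia4 -0.17, adjusted p = 0.1235). Nor did the fluidics run as a fixed block (Xbp1 -0.22, limma adjusted p = 0.367, and Pdia4 -0.11, adjusted p = 0.728). The remaining members differed between the structures by -0.06 to 0.22 on the log2 scale, none past the threshold.

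**Figure D2:**
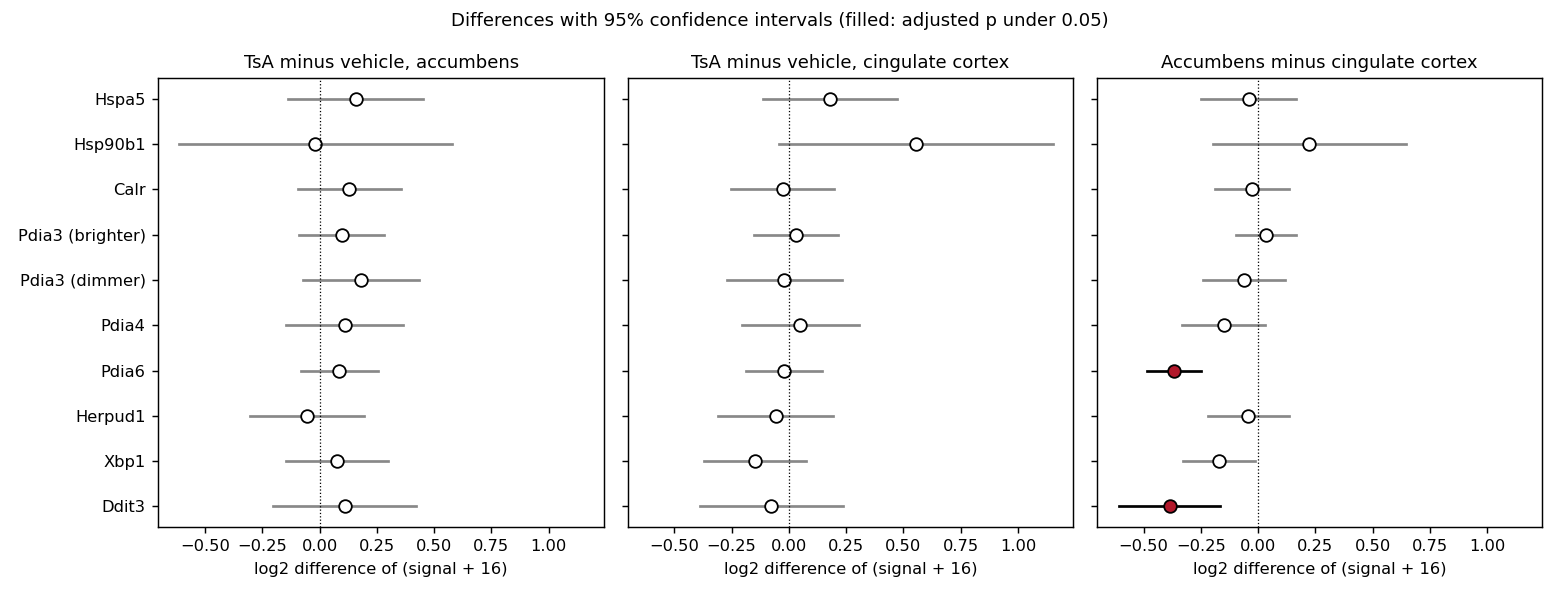
Log2 differences of (signal + 16) with 95% confidence intervals for the 10 probe sets, for TsA minus vehicle in NAc, TsA minus vehicle in ACC, and NAc minus ACC; filled points have an adjusted p under 0.05. Pdia6 and Ddit3 in the NAc minus ACC panel are the filled points, and the interval of Hsp90b1 is the widest in each panel.

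Under TsA, none of the 10 probe sets passed the threshold in either structure. In NAc, limma called 0 of 10 (0% of all 18625 probe sets were called), with 0 members and 408 of all probe sets at an unadjusted p under 0.05. In ACC it again called 0 of 10 (0% of all), with 0 members and 851 of all at an unadjusted p under 0.05. Averaged over both structures the count was 0 of 10 (0% of all, and 515 of all at an unadjusted p under 0.05). For the difference between the TsA effects it was 0 of 10 (0% of all, and 662 of all). Adjusted p-values of the members were 0.9999 in NAc and between 0.7515 and 0.9699 in ACC.

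The log2 differences under TsA in NAc ran over -0.05 to 0.18, with 7 of 9 genes above 0 and a median of 0.10. Over all 10382 genes the median was 0.02, with 57.0% above 0. In ACC they ran over -0.15 to 0.55, with 4 of 9 genes above 0 and a median of -0.02, against -0.04 over all genes, of which 38.7% were above 0. Leaving out Hsp90b1, the 95% intervals of the members reached at most from -0.30 to 0.45 in NAc and from -0.39 to 0.47 in ACC. Without NAc TsA array 1, 5 of 9 genes were above 0 in NAc and the median was 0.0088. Without NAc TsA array 2, 9 of 9 were and the median was 0.14, and these are the ends of the range. In ACC the median was 0.02 without TsA array 2 and 0.04 without vehicle array 2. With the fluidics run as a fixed block it was 0.11, with 6 of 9 above 0. That blocked ACC value sets TsA array 1 alone against the vehicle arrays.

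Hspa5 encodes BiP, the chaperone that binds unfolded proteins and holds the stress sensors inactive, and is the usual marker of the response. Its signal was 1587, 1403 and 1582 in NAc under TsA and 1564, 1211.5 and 1334 in NAc under vehicle. In ACC it was 1883, 1342 and 1555 under TsA and 1631, 1232 and 1343 under vehicle. TsA and vehicle arrays overlapped in both structures. The log2 difference was 0.16 ± 0.14 in NAc and 0.18 ± 0.14 in ACC (SE). Averaged over both it was 0.17 ± 0.10, with a 95% interval from -0.04 to 0.38. With the fluidics run as a fixed block the ACC value was 0.43 ± 0.18 and the average 0.31 ± 0.12. That ACC value sets TsA array 1 alone, the highest of the 12 arrays for Hspa5, against the vehicle arrays. The average rests on it and on vehicle array 3 alone in NAc.

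Hsp90b1 encodes Grp94, the Hsp90 chaperone of the endoplasmic reticulum. It read 748, 633 and 695 on NAc TsA arrays and 969, 787 and 447 on NAc vehicle arrays. In ACC it read 813, 574 and 807 under TsA and 735, 343 and 455 under vehicle. The vehicle arrays spread more widely than the TsA arrays in each structure, and TsA array 2 in ACC lay below vehicle array 1. Its TsA difference in ACC was the largest of the set, 0.55 ± 0.28 (SE; limma adjusted p = 0.752, 95% interval -0.04 to 1.15), beside -0.02 ± 0.28 in NAc (95% interval -0.61 to 0.58). The difference between these effects, NAc minus ACC, was -0.57 ± 0.39 (limma adjusted p = 0.84). With the fluidics run as a fixed block the NAc value was 0.61 ± 0.32, the ACC value 0.72 ± 0.32 and the difference between them -0.11 ± 0.45. That NAc value sets the TsA arrays against vehicle array 3 alone, the lowest NAc array at 447. The ACC value sets TsA array 1 alone against the vehicle arrays. Under the same block the structure difference of Hsp90b1 was 1.02 (limma adjusted p = 0.0595) in place of 0.22. It draws on the same single arrays.

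Calr encodes calreticulin, a calcium-binding chaperone of glycoproteins. It read 939.9, 795 and 856 on NAc TsA arrays and 733, 794 and 834 on NAc vehicle arrays. In ACC it read 784, 884 and 828 under TsA and 739.9, 964 and 852 under vehicle. The groups overlapped, with log2 differences of 0.13 ± 0.10 in NAc and -0.03 ± 0.10 in ACC.

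Pdia3 encodes ERp57, the isomerase that works with calreticulin. Its brighter probe set read 811, 736 and 796 on NAc TsA arrays, 754, 758 and 678 on NAc vehicle arrays, 789.8, 681 and 766 on ACC TsA arrays, and 745, 740.1 and 701 on ACC vehicle arrays. Its dimmer one read 59.2, 66.1 and 59.0 on NAc TsA arrays, 53.4, 44.6 and 59.8 on NAc vehicle arrays, 64.6, 61.9 and 52.3 on ACC TsA arrays, and 55.5, 57.9 and 68.6 on ACC vehicle arrays. Both overlapped between treatments, and the TsA differences in NAc were 0.10 ± 0.09 and 0.18 ± 0.12. The 2 probe sets did not follow each other from array to array: their deviations from the group means correlated at r = -0.59 (12 arrays), so they are 2 separate readings of Pdia3 and not repeats.

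Herpud1, which takes part in the degradation of misfolded proteins, read 199.7, 167 and 192 on NAc TsA arrays, 185, 204 and 191 on NAc vehicle arrays, 219, 171 and 187 on ACC TsA arrays, and 214, 213 and 175 on ACC vehicle arrays. All groups overlapped, and its TsA differences were -0.05 ± 0.12 in NAc and -0.06 ± 0.12 in ACC. For Ddit3 the TsA differences were 0.11 ± 0.14 in NAc and -0.08 ± 0.14 in ACC. The NAc value of Ddit3 was -0.07 without NAc TsA array 1 and -0.08 with the fluidics run as a fixed block. That blocked value sets the NAc TsA arrays against NAc vehicle array 3 alone.

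Pdia6 in NAc and Xbp1 in ACC had TsA and vehicle arrays that did not overlap. All 3 NAc TsA arrays of Pdia6 lay above the 3 NAc vehicle arrays, a pattern found in either direction for 5.48% of all probe sets in NAc, with a log2 difference of 0.09 ± 0.08. All 3 ACC TsA arrays of Xbp1 lay below the 3 ACC vehicle arrays, found in either direction for 12.4% of all probe sets in ACC, with a log2 difference of -0.15 ± 0.10. Each is 1 of 10 member probe sets, close to those shares.

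Markers of other cell types are set beside the TsA values. In ACC all 8 markers of microglia and macrophages had log2 differences below 0, with sums of 851 to 1007 under TsA and 1009 to 1248 under vehicle. All 6 of endothelium were below 0 too, with sums of 685.5 to 734 under TsA and 802 to 837 under vehicle. None passed the test, and 38.7% of all genes were above 0 in ACC. Among other lists in ACC, 1 of 6 astrocyte and 3 of 6 oligodendrocyte markers were above 0. In NAc all 6 markers of cortical neurons were above 0, as were 57.0% of all genes, with sums of 408 to 718 under TsA and 233 to 696 under vehicle. The part of these markers in the values above was not tested.

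The spread between arrays of 1 group set Hsp90b1 apart from the rest of the set. Its SD within groups was 0.42 on the log2 scale, above that of 96.9% of tested probe sets, whose median was 0.16. The SD was 0.12 in NAc TsA, 0.56 in NAc vehicle, 0.28 in ACC TsA and 0.54 in ACC vehicle, beside medians over all probe sets of 0.11, 0.18, 0.11 and 0.15 in the same groups. Pdia6, at 0.06, was among the steadiest, with 1.1% of probe sets below it. Hspa5 had 0.19, Ddit3 0.19, and the other probe sets 0.08 to 0.14.

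Hsp90b1 followed the axis that holds most of the within-group variance, at r = 0.96 over the 12 arrays. The sign of the axis was set so that this r is above 0. With r ranked by sign and not by size, Hsp90b1 stood at percentile 97.8 of all probe sets. Hspa5 correlated with the axis at 0.68 (percentile 81.5), Calr at -0.81 (9.44), Pdia6 at -0.59 (26.6) and Xbp1 at -0.49 (33.6). Many probe sets on these arrays thus had an r as far from 0 as those of Hspa5, Pdia6 and Xbp1. The blood markers Hbb and Alas2 had their lowest sum, 1232, on NAc vehicle array 1, where Hsp90b1 was highest. Their highest, 3062, was on ACC vehicle array 2, where Hsp90b1 was lowest. On NAc vehicle arrays 2 and 3, however, the sums were close, 2972 and 2867, while Hsp90b1 read 787 and 447. The actin 3′ to 5′ ratio was 2.38 on NAc vehicle array 1 and 1.96 on NAc vehicle array 3, but 2.01 on both ACC vehicle arrays 1 and 2, which lie at opposite ends of the axis. The part of either in the spread of Hsp90b1 was not tested.

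The 9 genes did not move as 1 block from array to array. With the brighter probe set for Pdia3, 26 of 36 pairs of genes had a correlation of deviations from the group means above 0. The median r was 0.31 over 12 arrays that share fluidics runs and pools. Neither was computed over all pairs of genes on the array, so no background stands beside them. Calr, Pdia4, Pdia6, Xbp1 and Ddit3 correlated above 0 with each other: Pdia4 with Xbp1 at 0.74, Calr with Pdia6 at 0.73 and Calr with Xbp1 at 0.70. Hspa5 and Hsp90b1 went together at 0.69, while Calr ran opposite to Hsp90b1 at -0.73 and to Hspa5 at -0.62. On the axis with 50.3% of the within-group variance, Hspa5 and Hsp90b1 correlated above 0 and Calr below 0. The part of that axis in these pairs was not tested. Pdia3 was closest to Herpud1, at 0.77. Hspa5, Hsp90b1, Xbp1 and Calr all hold the ERSE printed above, and their pairs range over -0.73 to 0.70.

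**Figure D3:**
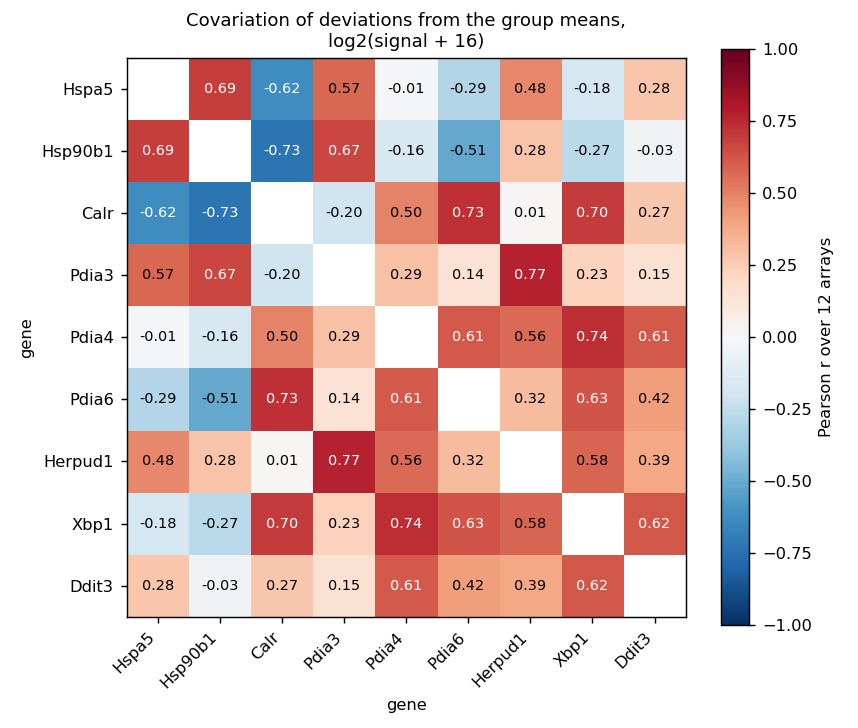
Pearson correlation, over 12 arrays, of deviations from the group means in log2(signal + 16) for each pair of the 9 genes, both axes listing the genes. Calr is red with Pdia6 (0.73) and Xbp1 (0.70) and blue with Hspa5 (-0.62) and Hsp90b1 (-0.73).

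Likeness to other genes was measured as the Pearson correlation over 12 arrays after the mean of each structure was taken away. The genes nearest Hspa5 were Trhde (0.93), Mtch2 (0.92), Gpr180 (0.91), Igbp1 (0.90) and Dock3 (0.90). For Ddit3 they were H2ax (0.91), Tvp23b (0.90), Mrpl51 (0.87), Ccm2 (0.86) and Mtmr4 (0.85). For Xbp1 they were Eif1b (0.93), Ost4 (0.93), Ostc (0.93), Sst (0.91) and Polr2m (0.90). Hsp90b1, added after its values were seen, was nearest Hspd1 (0.99) and Capn7 (0.99). These are descriptions of 12 arrays, and none of the 5 nearest genes of Hspa5, Ddit3 or Xbp1 belongs to the set.

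Other genes of the unfolded protein response differed between the structures in both directions, and Atf4 stood lowest. Of 67 listed genes 66 were on the array and 62 were tested. Creb3l2, Edem3, Trib3 and Atf3 were too dim. With the brightest probe set per gene, 9 were higher and 11 lower in NAc (limma, adjusted p under 0.05), 20 of 62, beside the 44.8% of all probe sets that passed. The median was 0.04.

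Atf4 is the transcription factor above Ddit3. It read 750.5, 567 and 638 on NAc TsA arrays, 562.5, 535 and 684 on NAc vehicle arrays, 1132, 1147 and 1026 on ACC TsA arrays, and 1138, 1307 and 1155 on ACC vehicle arrays. The structures did not overlap, and the log2 difference was -0.88 ± 0.08 (SE; limma adjusted p = 1.66e-06). It stayed past the threshold with the fluidics run as a fixed block (-1.04, adjusted p = 0.00142) and within the middle run (-0.96, adjusted p = 0.00116).

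The list of genes known to answer to Atf4 or to control translation went in both directions: 4 of 10 tested members were lower in NAc and 3 higher. Nupr1, a stress-induced nuclear protein, differed by -0.66 ± 0.10 (25.3 ± 4.64 in NAc, 49.4 ± 7.79 in ACC; SD, n = 6 arrays each), and Sesn2, a leucine sensor that restrains mTORC1, by -0.46 ± 0.09. Asns, which makes asparagine, and Chac1, which degrades glutathione, were lower too, with log2 differences of -0.35 and -0.20. Vldlr, a lipoprotein and reelin receptor, was higher by 0.52 ± 0.10 (176 ± 19.6 in NAc, 118 ± 20.9 in ACC), as were Ddit4, an inhibitor of mTORC1 (0.34), and Ppp1r15b, which helps to reverse eIF2α phosphorylation (0.28).

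Among the 8 sensors and transcription factors, Nfyb, a subunit of the CCAAT-binding factor, was lower (-0.17) besides Atf4, and Mbtps1, the protease that first cuts Atf6, was higher (0.39). Of 12 chaperones and cofactors, 1 was lower, the lectin chaperone Canx (-0.22), with other probe sets at -0.15 and -0.06 that did not pass. Of 11 disulfide and proline enzymes, Erp29 was higher (0.24) and the oxidase Ero1a lower (-0.28). Of 12 genes of glycoprotein quality control and degradation, Edem2 was higher (0.35) and Os9 (-0.54) and the segregase Vcp (-0.20) lower. Of 9 genes of the translocon, through which proteins enter the reticulum, Sec61g (0.35), Spcs1 (0.28) and Ssr3 (0.16) were higher and Ssr1 (-0.17) lower. Other probe sets of Ssr1 (-0.08) and Nfyb (-0.21) did not pass. Those of Ssr3 were at 0.11, which did not pass, and 0.27, which did, and that of Ero1a (-0.27) passed. With the fluidics run as a fixed block, 4 of the 20 called genes still passed: Atf4, Vldlr, Sesn2 and Nupr1. Within the middle run 4 passed, Atf4, Mbtps1, Asns and Sesn2.

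**Figure D4:**
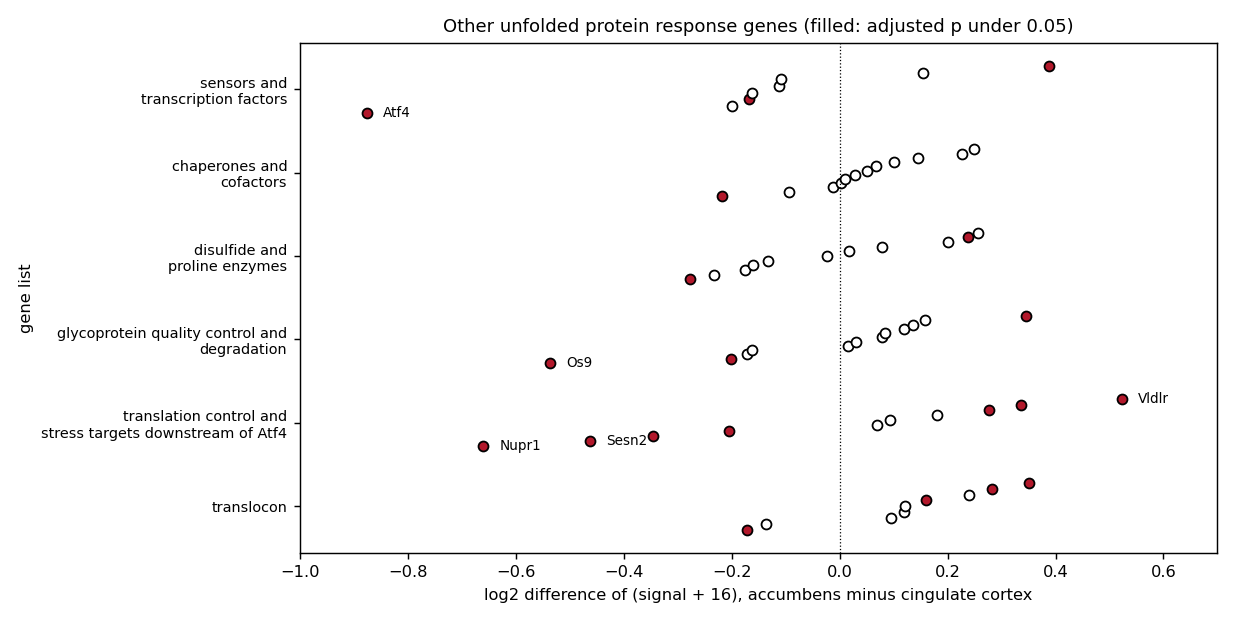
Log2 difference of (signal + 16), NAc minus ACC, for 62 other genes of the unfolded protein response in 6 lists, 1 point per gene, filled where the adjusted p was under 0.05. Atf4 lies farthest left at -0.88, Vldlr farthest right at 0.52, and every list has points on both sides of 0.

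Under TsA, 0 of these 62 genes passed in either structure. In NAc 46 of 62 were above 0, with a median of 0.06 (all genes 0.02, 57.0% above 0). In ACC 18 of 62 were above 0, with a median of -0.08 (all genes -0.04, 38.7% above 0). The 12 tested genes of glycoprotein quality control and degradation were all above 0 in NAc (median 0.09) and 1 of 12 was in ACC (median -0.15). The difference of the TsA effects, NAc minus ACC, was above 0 for 12 of 12 and called for 0. It was also above 0 for 46 of the 62 genes and for 62.05% of all genes. With the fluidics run as a fixed block its median over all probe sets was 0.0012 in place of 0.032, and the 12 were not followed under that block. That blocked value rests on NAc vehicle array 3 alone and ACC TsA array 1 alone for those groups. Without NAc vehicle array 1, 34 of the 62 genes were above 0 in NAc (median 0.01), and 9 of these 12 were (median 0.03). Without ACC vehicle array 2, the medians in ACC were -0.04 over the 62 and -0.07 over the 12. These comparisons share no arrays between NAc and ACC, but genes on 1 array are not independent.

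The smallest p-values of these lists under TsA in NAc were those of Edem1, which hands misfolded glycoproteins to degradation (0.25 ± 0.11), and Dnajb11, a cofactor of Hspa5 (0.24 ± 0.11). In ACC they were those of Bbc3, a pro-apoptotic target of Ddit3 and p53 (-0.35 ± 0.11), and Mbtps2, the protease that makes the second cut in Atf6 (0.52 ± 0.16). All 4 had limma adjusted p-values of 0.9999 in NAc or 0.7515 in ACC.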

How the data were processed

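The deposited value table holds a MAS5 signal per probe set, an intensity on a linear scale, from images read with GCOS 1.4, per the submitters' processing notes. The authors had scaled each array, as its trimmed mean shows, and no further normalization was applied. Run records gave only the station and start time from which the fluidics runs were inferred. Of 31099 probe sets, 57 controls were left out. Names came from the platform annotation by Entrez gene ID, and 436 probe sets with several symbols were not named. The lowest 40% by mean signal were left out (18625 kept), and values were analysed as log2(signal + 16), which understates the fold changes of dim probe sets.

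One limma 3.58.1 model (R 4.3.3), with the 4 groups as its terms, took in all 12 arrays, with a mean-variance trend and 8 residual degrees of freedom. It gave 5 comparisons: TsA minus vehicle in each structure, their average, their difference, and NAc minus ACC. The two-sided p-values were adjusted over all probe sets by Benjamini-Hochberg, with a threshold of 0.05. The number of arrays limits the precision.

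The 9 genes, the 6 lists of other unfolded protein response genes and the marker lists were chosen with earlier results of these data known. By rule, all members are named, and from each list any gene past the threshold and the 2 with the smallest p in a comparison may be named. The brightest probe set stands for a gene. Some symbols on these lists, Ern1 among them, were not analysed here. The 4 measured choroid plexus markers were too dim to test (sums 29.6 to 49.2). Astrocyte markers were 1 higher and 2 lower of 6 in NAc, those of microglia and macrophages 0 and 1 of 8, of endothelium 0 and 0 of 6, and of blood 0 and 0 of 2. Alternatives were the added constant, the filter, the normalization, the fluidics run, the replicate number, the variance model, each structure alone and each array left out. Whether replicate numbers pair the arrays was not settled. Deviations of same-numbered arrays correlated at -0.32 to 0.66, above 0.1 in 6 of 18 pairs. Those of other-numbered arrays correlated at -0.67 to 0.6, above 0.1 in 7 of 36 pairs.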

Additional observations from a re-analysis of the deposited data

How the results depend on the processing

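Of 1130 member values recomputed, 1102 were labelled the same, all of them on their first side of the threshold. Those of them not called also moved by less than the spread between arrays, while for called values the size of the move was not checked. Another 22, not called, kept their side too but moved further. Only 3 were no longer past the threshold and 3 came past it, and none that had been called changed sign. The count of members called between the structures, 2 as reported, was 4 with each array centred on its median, 0 with the fluidics run as a fixed block and 1 within the run that held both structures, a comparison of 4 arrays. Over all probe sets, 8349 were called, against 4199 with that block and 4231 within the run. Leaving out 1 array gave 2 to 3 members called, the third being Xbp1 without NAc TsA array 1. The count of members called for TsA was 0 under every alternative run. Ero1a, -0.28 between the structures, was 0.0192 (adjusted p = 0.954) with the run as a fixed block; the cause was not tested. With the replicate block, 2 members were called between the structures, 8651 of all probe sets were, and 1 of all probe sets was called for the average TsA effect (0 as reported); no other call of a member changed under it. Of the 20 other genes called between the structures, 13 to 19 were called when 1 array was left out, and all 20 kept their direction there. Nupr1, with a mean of 25.3 in NAc, lies near the filter limit of 17.4, so its fold change is understated.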
